A study of Hydra vulgaris with 2 samples.

Results

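The subject is the set of curated mRNAs of *Hydra vulgaris* in extracellular vesicle (EV) RNA, that is the targets whose listed identifier starts with NM_, the prefix that RefSeq gives to mRNA records backed by submitted sequences. Every such target was taken, whether or not it held a read, apart from 4 records that were left out by identifier, which gave 93 of the 25314 listed targets. The 93 targets carry 88 accessions, and 5 of them are listed as a further copy of an accession. A gene name could be given to 67 targets, and the remaining 26 are called by their identifiers. Of the named targets, 13 have only a locus number, so that whether every member has been studied individually could not be checked.

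Cells shed EVs, small particles enclosed by a membrane, and those studied here were pelleted by ultracentrifugation from the medium of polyps of the strain Zurich that had been starved for 4 days. Proteinase K and then RNase A were applied to the vesicles to remove RNA outside them, and total RNA was then extracted. The data are 2 RNA-seq libraries of this 1 condition, called library A and library B, whose labels differ by a number that the sources do not explain. No whole-polyp RNA is analysed here, and no enrichment of a transcript in EVs over the animal can be given.

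*Hydra* maintains itself from epithelial stem cells and from interstitial stem cells, which give rise to nematocytes, neurons, gland cells and germ cells. Nematocytes are the stinging cells of cnidarians, and their capsule wall is built of minicollagens, very short collagens linked by disulfide bonds. Other members belong to functions found in most animal cells, such as iron storage, translation, signal transduction and cell death.

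Library A held 5943550.5 estimated counts and library B 3943873, of which the 5 most abundant targets took 97.0% and 98.7%. The mRNAs outside these 5 held 142638 counts in library A, as against 34881 in library B. The curated mRNAs held 2651 of the former, or 1.86% (95% Wilson interval 1.79 to 1.93), and 409 of the latter, or 1.17% (1.06 to 1.29). PCR reads are not independent molecules, and such intervals and floors therefore describe the error of counting alone. TPM, the unit of relative transcript abundance used below, divides the counts by transcript length and scales each library to 1 sum, so it is low wherever a few targets take most reads. For a member of median effective length, the floor of 3 counts corresponded to 0.552 TPM (library A) or 0.879 TPM (library B). The tetraspanin CD151, a protein marker of EVs, had 34 and 4 counts in the libraries, and 3 genes of lysosome-associated membrane proteins had 34 to 81 and 5 to 12 counts. Transcripts enclosed in vesicles and those from other particles in the same pellet cannot be told apart.

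Of the 93 curated mRNAs, 47 reached 0.4 TPM, the detection threshold, in at least 1 library (50.5%), against 25.1% of the 21885 other mRNAs and 25.3% of all listed targets. In both libraries 25 members reached it (26.9%), against 3.64% of the other mRNAs and 4.25% of all targets. The 25 members were also those above the threshold in library B, and 22 were above it in library A only. When at least 3 counts in the same library were asked for as well, 44 members passed (47.3%), against 21.1% of the other mRNAs and 19.6% of all targets. No test was made of these differences, because there is 1 condition and targets are not replicates of it.

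The same order was seen in the reads themselves. At least 3 counts were found for 49 members in library A (52.7%, against 29.0% of other mRNAs) and for 18 in library B (19.4%, against 3.28%). The median member had 3.92 counts in library A and the median other mRNA 1, while both medians were 0 in library B. Some read was assigned to 69 members, of which 35 had counts in both libraries and 34 in library A only, and 24 members had none. Members were shorter than other mRNAs, with a median length of 871 against 1126 bases. Among other mRNAs within the 10th to 90th length percentile of the members, 24.5% were detected, close to the 25.1% over all lengths.

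**Figure D1:**
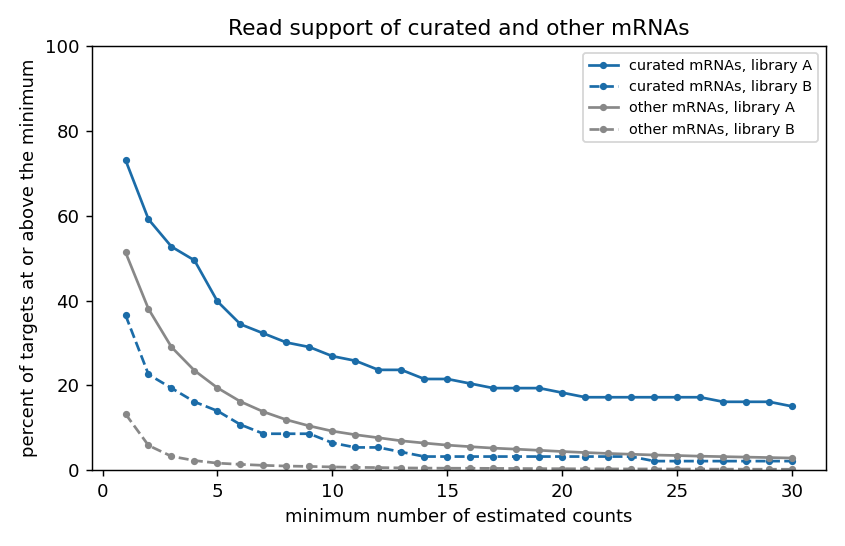
Percent of targets (vertical axis) with at least a given number of estimated counts (horizontal axis), for the 93 curated mRNAs (blue) and the other mRNAs (grey) in library A (solid) and library B (dashed). At 3 counts the curated mRNAs stood at 52.7% and 19.4%, and the other mRNAs at 29.0% and 3.28%.

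The threshold itself separated members that hardly differed. The lowest detected member had 0.406 TPM in library A, on 2.83 counts, and the highest member below the threshold was *rfc1*, with 0.390 TPM on 9 counts. Of the detected members, 3 had under 3 counts in every library. In library B, 9 of the 25 detected members rested on under 3 counts.

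Where 2 values are given without naming the library, library A comes first. *Ferritin*, the iron storage protein, was the most abundant curated mRNA. It had 1175 counts in the former library and 234 in the latter, or 284 and 90.1 TPM (mean 187 ± 137 TPM, SD, n = 2 libraries), and ranked 11th by mean TPM among all mRNA targets. Of the curated mRNA counts it held 44.3% (library A) and 57.2% (library B). Its TPM was 7.16-fold that of the next member in library A, ribosomal protein L10, and 5.86-fold that of the next one in library B, minicollagen 11. The 10 most abundant members together made up 85.9% of the summed mean TPM of the set, so most of the 93 members were rare.

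Second by mean TPM was the mRNA of ribosomal protein L10 (LOC100215540), a component of the large ribosomal subunit, with 166 and 14 counts in libraries A and B (39.7 and 5.33 TPM). The mRNA of 60S ribosomal protein L12 (LOC100198049) had 65 and 10 counts, or 20.5 and 5.02 TPM, and the further copy of its record had 1 count in library A. Both ribosomal protein mRNAs were therefore above the threshold in both libraries, as were 3.64% of other mRNAs, at several-fold lower TPM in library B. These 2 genes were likewise recognised by descriptions in the study's list of detected genes, so that they were detected is no finding.

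The 14-3-3 proteins are adaptors that bind phosphorylated partners in many signalling pathways. The 2 members recognised as 14-3-3 mRNAs were above the threshold in both libraries, as were 3.64% of other mRNAs. They were recognised by descriptions in the study's list of detected genes, so their detection is no finding. The 14-3-3 mRNA LOC100201221 had 264 counts in library A against 32 in library B (26.1 and 5.02 TPM). The 14-3-3 protein B mRNA (LOC100212336) had 91 and 9 counts (19.9 and 3.14 TPM). RACK1 (LOC100197367), a scaffold protein that binds the small ribosomal subunit and protein kinase C, had 119 and 6 counts (18.3 and 1.47 TPM). The 2 14-3-3 mRNAs and RACK1 lay close to each other in library A and further apart in library B, where RACK1 was the lowest.

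Among members of none of the fixed groups, the mRNA of nucleoside diphosphate kinase (LOC100207502), which balances nucleotide pools, had 56 and 9 counts (21.0 and 5.39 TPM). Importin subunit alpha (LOC100212376), an adaptor of nuclear import, had 77 and 5 counts (5.32 and 0.549 TPM). The chromatin protein HMGB3 (LOC100204109) had 35 and 3 counts (4.75 and 0.647 TPM). These 3 mRNAs, again of functions found in most cells, were thus also present in both libraries. The record *hyzebra*, whose role is not known here, had 40 and 5.78 counts (6.62 and 1.52 TPM).

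**Figure D2:**
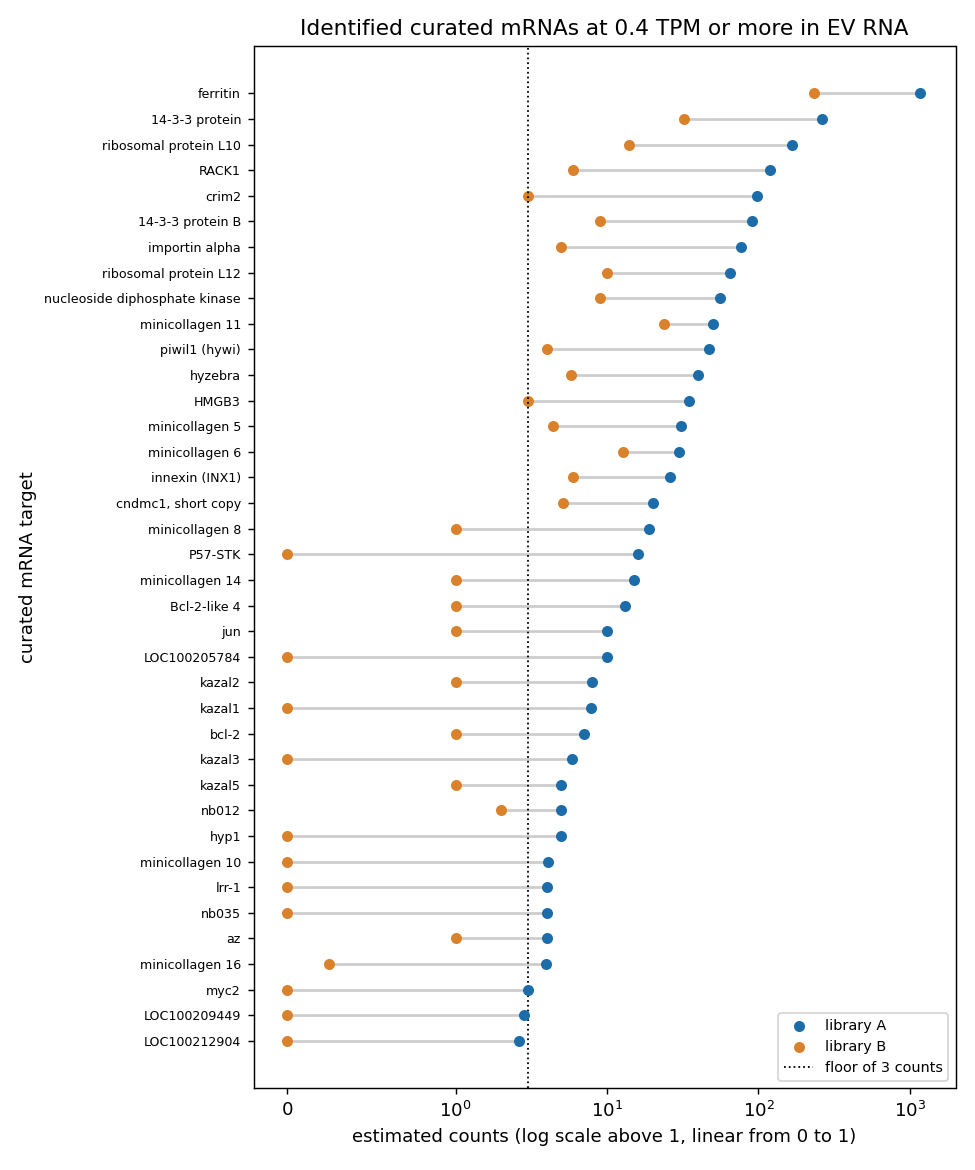
Estimated counts (horizontal axis, logarithmic above 1 and linear below) of 38 of the 40 identified curated mRNAs that were detected, in library A (blue) and library B (orange), with the floor of 3 counts as a dotted line. Library A is to the right of library B for each of them, and *ferritin*, with 1175 and 234 counts, lies apart from the rest.

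The nematocyst group held 7 minicollagen mRNAs and *nowa*, a glycoprotein of the capsule wall. All 8 had a count, 7 were detected in at least 1 library and 5 in both. Among other mRNAs the shares were 55.9%, 25.1% and 3.64%. The minicollagens were recognised by descriptions in the study's list of detected genes, so a minicollagen gene outside that list could not enter the group. The contrast with other mRNAs is therefore set by how the group was formed and is no finding. By curated target, minicollagen 11 (LOC100212471) was the most abundant of the group, with 50.1 and 23.7 counts (20.3 and 15.4 TPM). Among all members it had the highest mean TPM after *ferritin* and ribosomal protein L10. Minicollagen 6 (*nb001*) had 30.0 and 12.7 counts (9.76 and 6.58 TPM), and minicollagen 5 (LOC100204377) had 30.8 and 4.40 (10.0 and 2.28 TPM). These 3 targets were well above the threshold in each library.

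The other curated minicollagen targets were rarer. Minicollagen 8 (LOC100200194) had 19 and 1 counts (6.40 and 0.537 TPM), and minicollagen 14 (LOC101235129) 15 and 1 counts (4.40 and 0.468 TPM), so both passed in library B on a single count. Minicollagen 10 (LOC101236347) had 4.10 counts in library A and none in library B, and minicollagen 16 (LOC100205002) 3.92 and 0.247. *nowa* stayed below the threshold, with 4 and 1 counts on a transcript of 2634 bases (0.225 and 0.0894 TPM). Every minicollagen was recognised through the study's list of detected genes, and minicollagen 14 took its locus number from it as well. That they were detected is thus no finding.

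Further records tied to nematocytes lay outside the fixed group and were looked at after their values were seen. The *nb* genes take their names from nematoblasts, the precursors of nematocytes, and *nb012* had 5 and 2 counts and *nb035* 4 and 0. The nematogalectin record (LOC100212904), a lectin of the nematocyst tubule, had 2.61 counts in library A only, and its relative *nemgalR1* had none in either library. *zic1*, a transcription factor gene that in *Hydra* is expressed in early nematocyte precursors, had 4 counts in library A and none in library B (0.349 and 0 TPM). These records had at most 5 counts in a library, about as many as *nowa* and the curated targets of minicollagens 10 and 16. The other 5 curated minicollagen targets had more in library A.

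Several genes are listed both as a curated target and as an adjacent predicted target, and kallisto divides the reads that fit both. They could be found only for members with a count, where the summed TPM matched the study's list of detected genes. For 9 members such a pair was found, and for 8 of them the adjacent target held more than 0.5 of a count in library A. Whether other members share reads with an adjacent target was not tested. For minicollagen 6 the sum over both targets was 119 and 20.5 counts (27.7 and 9.09 TPM), of which the curated target held 25.2% and 61.8%. For minicollagen 5 the sum was 69.9 and 4.40 counts (17.6 and 2.28 TPM). In library A the sum was 30 counts for minicollagen 10, against 4.10 on its curated target, and 26 for minicollagen 16, against 3.92. Both sums exceeded the 19 and 15 counts of minicollagens 8 and 14 there. By mean TPM the sum for minicollagen 6, 18.4 TPM, was above the 17.8 TPM of minicollagen 11. In library B alone minicollagen 11 stayed higher. The 7 minicollagen genes together then had 329 and 53.6 counts, and 5 of 7 were above 0.4 TPM in both libraries. The curated targets alone thus held less than all reads of these genes, above all in library A.

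**Figure D3:**
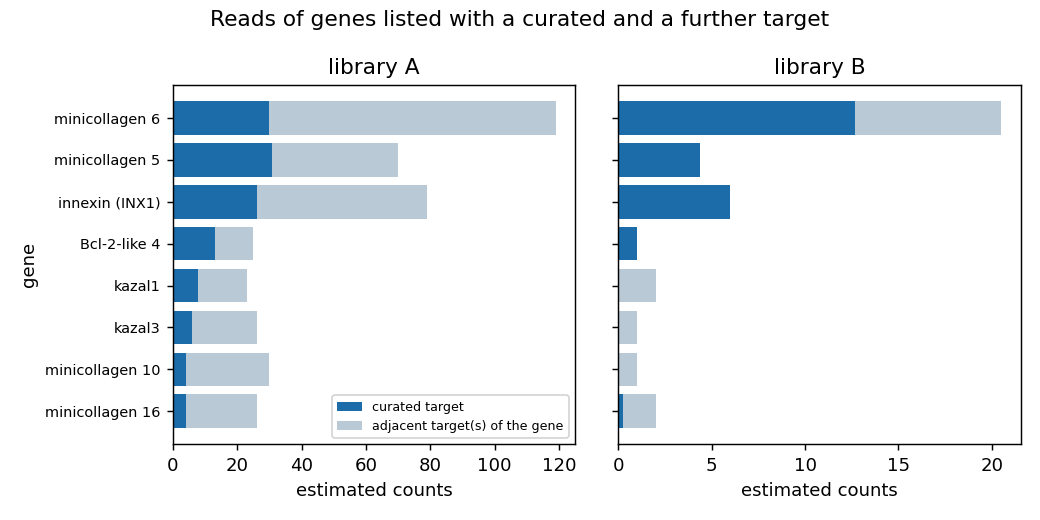
Estimated counts (horizontal axis, a separate scale for each library) of the 8 genes listed with a curated target (blue) and at least 1 adjacent target (grey), in library A (left) and library B (right). The curated target of minicollagen 6 held 25.2% (library A) and 61.8% (library B) of the gene's counts.

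Kazal-type inhibitors block serine proteases, and in *Hydra* such inhibitors are products of gland cells. Of the 5 curated Kazal mRNAs, 4 were detected in at least 1 library and 2 in both, against 25.1% and 3.64% of other mRNAs. *kazal2* had 8 and 1 counts (2.77 and 0.553 TPM), and *kazal5* had 5 and 1 (1.73 and 0.553 TPM). *kazal1* had 7.81 counts and *kazal3* 5.90 in library A, with none on the curated target in library B, and *kazal4* had none at all. With the adjacent targets, *kazal1* had 23 and 2 counts (5.90 and 0.668 TPM) and *kazal3* 26 and 1 (5.90 and 0.305 TPM). The 5 Kazal genes then summed to 62 and 5 counts, and 3 of them were above the threshold in both. *kazal2*, *kazal3* and *kazal5* were named through the list of detected genes, so only *kazal1* and *kazal4* bear on how often the family was found.

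The Kazal records lay within 9 positions of each other in the order of the listed targets. In the gene annotation of another *Hydra* assembly, *kazal1* and *kazal4* are neighbours with 0 annotated genes between them, and so are minicollagen 5 and minicollagen 10. Minicollagen 8 and minicollagen 14 are directly adjacent in the listed order. Of the neighbours *kazal1* and *kazal4*, only the former had any read.

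BMP signalling was represented by *crim2*, a chordin-like gene. Chordin-like proteins bind BMPs outside the cell and modulate their access to receptors. *crim2* had 98 and 3 counts in the libraries on a transcript of 3655 bases (3.93 and 0.191 TPM), so that it passed the threshold in library A only.

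The cell death group held Bcl-2-like 4 (LOC100203447) and *bcl-2*, both of the family that controls mitochondrial permeability in apoptosis. Bcl-2-like 4 had 13.1 and 1 counts (3.88 and 0.471 TPM), or 25 and 1 with its adjacent target. *bcl-2* had 7 and 1 counts (2.26 and 0.515 TPM). Both were thus detected in both libraries, each on 1 count in library B, as were 3.64% of other mRNAs. Bcl-2-like 4 was recognised by its description in the study's list of detected genes, so only *bcl-2* bears on how often the group was found.

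Among the germ line and stem cell genes, *piwil1*, the *Hydra* Piwi gene hywi whose product acts with piRNAs against transposons, had 47 and 4 counts on 3197 bases (2.17 and 0.293 TPM). The *myc* genes encode transcription factors of proliferating cells. *myc2* had 3 counts and *myc1* 1 count in library A, with none in library B, and *max*, which encodes the partner of Myc proteins, had none in either. Of *piwil1*, the *myc* genes and *max*, only *piwil1* was above 3 counts, and it passed the threshold in library A only.

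*cndmc1*, a homologue of the meiotic recombinase DMC1 and of the same group, is listed as a pair of targets. Its record of 1167 bases had no count in either library, while the further copy of 286 bases had 20.2 and 5.14 counts (15.0 and 6.16 TPM). The TPM of the short copy is raised by its length, since 1 count on it equals 0.742 TPM in library A. At the other extreme 1 count on *cad*, the longest member with 6404 bases, equals 0.0227 TPM, and its 11 counts in library A gave 0.249 TPM. Reads were thus found on the short *cndmc1* copy and not on the long one, and no statement about the whole transcript can be made from them.

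The gap junction gene innexin (LOC100197789, *INX1*) had 26.2 and 6 counts (3.41 and 1.24 TPM), or 79 and 6 with its adjacent targets. *jun*, a subunit of the transcription factor AP-1, had 10 and 1 counts (1.52 and 0.242 TPM). The kinase record P57-STK (LOC100198593) had 16 counts in library A and none in library B (1.31 and 0 TPM). The ornithine decarboxylase antizyme record *az* had 4 and 1 counts, *hyp1* 5 and 0, and *lrr-1* 4 and 0. *nfkb1* had 1 count in library A on each of its 2 copies, and the homeobox gene *Cnox-2* and *ecd* had 1 each. The antimicrobial peptide gene periculin had no count in either library. These genes were therefore at or near the floor, apart from innexin, *jun* and P57-STK, and a count of 0 allows a level of up to 3 counts.

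The 26 members without a name were rarer than the named ones. A count was found for 14 of them, 7 were detected in at least 1 library and 2 in both. Of the other mRNAs, 55.9% had a count, 25.1% were detected in at least 1 library and 3.64% in both. The highest by counts was NM_001280827.1, with 11.3 counts in library A and none in library B. Names for 6 members came from the study's list of detected genes, so the contrast with the named members is partly set by how names were found. The descriptions of 28 named members all came from that list too. Placement in a group by description therefore depended on detection of the gene. The fixed groups of proteases, Wnt, Notch and foot or head peptides had 0 members among the curated mRNAs considered. These values of 0 do not show that such mRNAs were absent from the EV RNA. Some curated records were left out by identifier before members were counted. The *Wnt3* record in the paper's list of primers has a curated identifier and was not among the members. The 26 unnamed members, and those with only a locus number, were placed in no fixed group.

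Across the 47 detected members the libraries gave a Pearson r of 0.875 and a Spearman rho of 0.784 on log2(TPM + 0.1). Across the 5501 detected other mRNAs they were 0.542 and 0.319. These are descriptions across targets, which share a library and are not independent replicates, and members hold more reads than other mRNAs. TPM was lower in library B for 68 of the 69 members with a count (98.6%), against 93% of other mRNAs and 92.1% of all targets with a count. The exception was NM_001280922.1, with 4 and 3 counts (0.419 and 0.50 TPM).

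The division of reads between the libraries was then compared within each member, a comparison chosen after the values were seen. Of the counts of other mRNAs outside the 5 most abundant targets, summed over both libraries, 19.8% lay in library B, and 14.6% when the most abundant of them was left out as well. The curated mRNAs had 13.4% of their counts in library B, and 10.6% without *ferritin*. Of the 27 members with at least 10 summed counts, 20 had an exact 95% binomial interval that held 14.6%. The interval lay below it for 4 members (14.8%, against 16.4% of 2203 other mRNAs) and above it for 3 (11.1%, against 3.22%).

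The 4 members with a low share in library B were *crim2* with 2.97% (0.617 to 8.44), RACK1 with 4.80% (1.78 to 10.2), importin subunit alpha with 6.10% (2.01 to 13.7) and ribosomal protein L10 with 7.78% (4.32 to 12.7). The 3 with a high share were minicollagen 11 with 32.4% (22.0 to 44.3), minicollagen 6 with 30.2% (17.2 to 46.1) and *ferritin* with 16.6% (14.7 to 18.7). Of these 3, only minicollagen 11 had an interval above 19.8%, the share with the most abundant mRNA kept. Over both of its targets, minicollagen 6 had 15.0% of its counts in library B (9.53 to 22.0), so its high share was not seen for the gene. The counts of minicollagen 11 are fractional too, so some of its reads were divided with a target not identified here. Its share over such targets was not tested. With 1 library on each side and counting error alone in the intervals, these values compare the 2 libraries and not conditions.

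**Figure D4:**
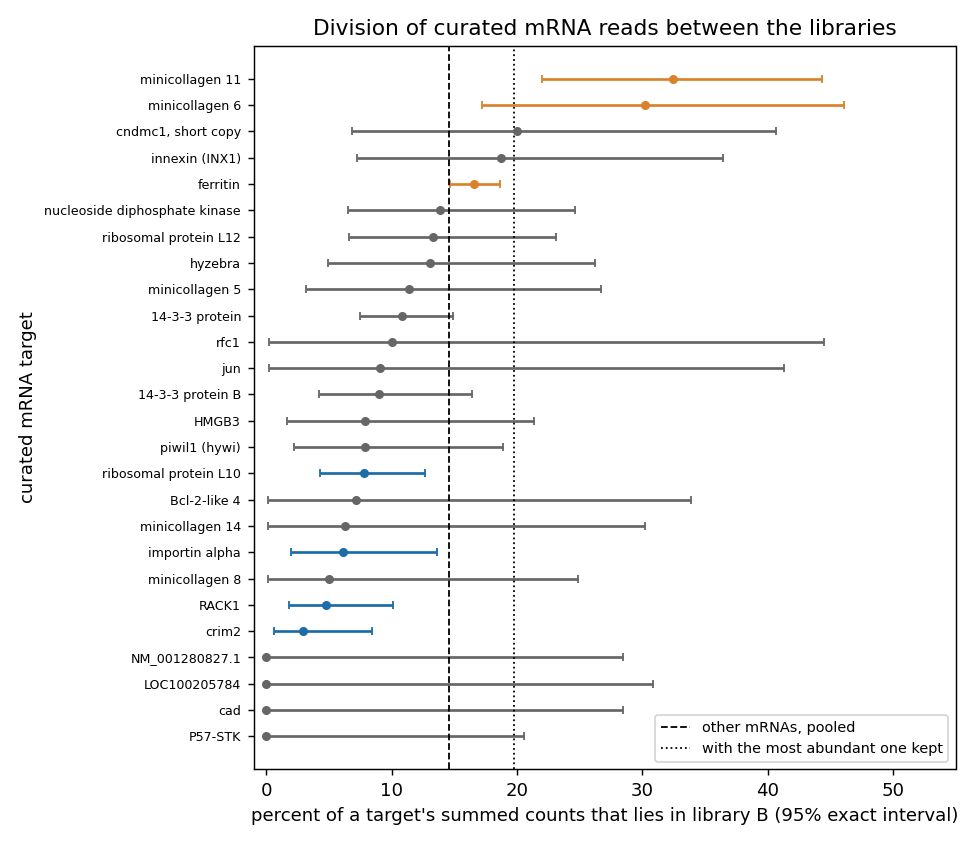
Percent of each member's summed counts that lies in library B (horizontal axis) with its exact 95% binomial interval, for 26 of the 27 curated mRNAs with at least 10 summed counts. The dashed line marks other mRNAs pooled (14.6%) and the dotted line the same with the most abundant mRNA kept (19.8%), intervals below the dashed line are blue, those above it orange, and 19 of the plotted intervals hold it (grey).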

How the data were processed

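EV RNA of *Hydra vulgaris* was measured in 2 libraries of 1 condition. The authors trimmed the reads with Trim Galore and quantified them with kallisto on the NCBI transcripts of the assembly Hydra_RP_1.0, and the tool versions are not given in the sources used here. The deposited estimated counts carry no normalization and can be fractional, because kallisto divides shared reads. The deposited TPM values are scaled by the authors' tool to 1 sum per library, and depth was 5943550.5 and 3943873 counts. Nothing was normalized again, and with 1 condition no test was made.

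Members and lists were chosen with earlier results of these data known. The rule also left out a record of Annexin-B12, but the TPM it gives belongs to a target with another prefix, so it removed none. Names came from accessions in a RefSeq gene table of the assembly HydraT2T_AEP (61 targets) and from TPM pairs in the study's list of detected genes. The pairs were matched to a relative tolerance of 1e-05 for 1 target (5) or for adjacent targets summed (1). Descriptions were taken only from that list, so a gene outside it could join a group only by its symbol or synonym. Sums over adjacent targets were also found only through it. Coordinates of the gene table were used only to tell which genes are neighbours. Named genes were identified members with at least 3 counts in a library and a fixed group, all identified members of 7 groups, and the 5 with the highest mean TPM. *hyzebra* was taken out of the nematocyst group because its role is not known here. Nucleoside diphosphate kinase is the fifth by mean TPM. The importin, HMGB3, *jun*, *nb012*, *nb035*, nematogalectin, *nemgalR1*, P57-STK, *az*, *hyp1*, *lrr-1*, *nfkb1*, *Cnox-2*, *ecd*, periculin, *max*, *rfc1* and *cad* were named after their values were seen. So were the unnamed targets given by identifier. A target was detected at 0.4 TPM, the pseudocount was 0.1, and the floor was 3 counts. The values of 2 members are counted in the totals but not reported here. Syntenin-1 and programmed cell death 6-interacting protein are not analysed here. Python 3.11.15, pandas 2.3.3, numpy 2.4.6 and scipy 1.17.1 were used, and the intervals were tested on simulated data. Whether the libraries came from separate cultures is not stated in the labels, and the study's text calls them biological replicates. Alternatives were other thresholds and count minimums, rescaled TPM, another pseudocount and each library left out.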

Additional observations from a re-analysis of the deposited data

How the results depend on the processing

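Detection changed with the threshold, the count minimum, the scaling and the library. At 1 TPM, 31 members (33.3%) were detected in at least 1 library and 13 in both, against 9.91% of other mRNAs, and at 0.2 TPM 61 members (65.6%) were detected in at least 1 library, against 39.8%. With at least 10 counts in the same library, 24 members (25.8%) and 6 in both remained detected, against 8.81% of other mRNAs, and with at least 3 counts 16 were detected in both. With targets of whole-number counts only, 31 members were detected in at least 1 library, that is 40.8% of such members against 23.2% of such other mRNAs. With any count above 0 the percentages were 74.2% and 55.9%, and with TPM rescaled without the 5 most abundant targets 74.2% and 54.2%. Members stood above other mRNAs under each of these settings. Leaving out each library in turn gave 25 to 47 members detected (26.9% to 50.5%), 4.51% to 24.3% of other mRNAs, and a curated share of mRNA counts of 1.17% to 1.86% around a mean of 1.52%. That mean was 0.592% of all mRNA counts and 0.768% without *ferritin*. The Pearson r was 0.758 on rescaled TPM, and the rank correlation was 0.784. All 26 members with at least 10 summed counts before rounding were lower in library B, as was the 1 that reaches 10 on rounding. With the most abundant mRNA kept in the pool, 8 members had an interval below the pooled share in library B and 1 above it, a setting chosen after seeing the data. The mean TPM of each of the 45 named members with a value moved when TPM was rescaled, by construction, since rescaling multiplies TPM by 33.1 in library A and by 43.0 in library B. No paired analysis was possible because there is 1 condition. Depth limits library B above all, where 9 of 25 detections rested on under 3 counts, and 2 libraries limit every spread given.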
